A study of Mus musculus with 2 samples.

Results

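DNase-seq peaks at the start sites of long noncoding RNA (lncRNA) genes were examined in whole adrenal glands of the mouse. A peak was counted as an lncRNA promoter peak when its centre lay within 1 kb of a transcription start site (TSS) of a gene typed lincRNA or antisense, and over 5 kb from any protein-coding TSS. The annotation was the basic set of GENCODE release M21 on mm10, which holds no gene typed lncRNA. By that rule 2217 of the 157595 peaks of replicate 1 were lncRNA promoter peaks, and 2388 of the 166206 peaks of replicate 2. They made up 1.41% and 1.44% of the peaks of these libraries.

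In DNase-seq, nuclei are digested lightly with the nuclease DNase I, which cuts open chromatin more readily than DNA packed by nucleosomes, so that regulatory DNA in use, at promoters and elsewhere, stands out by its density of cuts. The 2 libraries, called biological replicates 1 and 2, are the whole of the only group. Both came from adrenal gland tissue of female mice aged 36 days of the strain B6CASTF1/J, a first-generation hybrid of C57BL/6J and the wild-derived CAST/EiJ. The labels number the animals differently and point to the same donor record, so they were taken as animals of 1 stock, and the labels do not say what else they share. The gland holds cortex, medulla and supporting cells, which were read together. The peak heights do not tell the parental alleles apart. With 1 group of 2 libraries no test between conditions is possible. Comparisons are therefore between classes of peaks within each library, and their spread is the difference between the replicates. Where a pair of values follows without labels, the first is from replicate 1 and the second from replicate 2. A height is the authors' deposited signal for a peak, on a scale of their own.

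lncRNAs are transcripts that resemble messenger RNAs in being made by RNA polymerase II, capped and often spliced, but are not translated into a known protein. Some act on chromatin near the site where they are made, as Xist does when it coats and silences 1 X chromosome of female cells. Others serve as hosts for small RNAs or as scaffolds of nuclear bodies, and many have no known role. Their promoters are often weaker and more tissue-specific than those of protein-coding genes.

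The tissue label was checked against promoter peaks of defining genes. All 4 adrenal cortex genes tested (Star, Cyp11a1, Cyp21a1 and Nr5a1) had a promoter peak in both libraries, with median tallest heights of 6.23 and 9.27. The adrenal medulla genes Th, Dbh and Chga had one in each library, with heights of 0.738 and 0.989 at Th, 0.9998 and 1.14 at Dbh and 2.17 and 6.40 at Chga. Promoter peaks were found in each library at 5 of 6 adipocyte genes, 3 of 6 neuronal genes and 3 of 9 kidney genes, and at 0 of 6 liver genes and 0 of 8 lymphocyte genes. The part of other cell types in the lncRNA promoter peaks was not tested. Fewer cells of a type and weaker opening in each cell cannot be told apart in a whole gland.

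Peaks gathered at lncRNA start sites, but over a high floor. For 6422 lncRNA genes, the most upstream TSS over 10 kb from a coding TSS was taken, and the 100 bp centred on it held 43.1 and 49.4 peak centres per 1000 TSSs. The flanks, 3 to 5 kb away on both sides, held 6.83 and 7.25 per 100 bp, so the excess at the TSS was 6.32-fold and 6.81-fold. Around the most upstream TSSs of 21938 protein-coding genes the same measure reached 290.3 and 300.0, which was 30.7-fold and 29.6-fold over its flanks. Peaks at the flank density alone would make up 44.0% and 43.1% of the peak centres within 950 bp of an lncRNA TSS, against 14.6% and 14.9% within 950 bp of a coding TSS. The name promoter peak therefore describes a distance to an annotated TSS, and not every such peak need be a promoter.

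**Figure D1:**
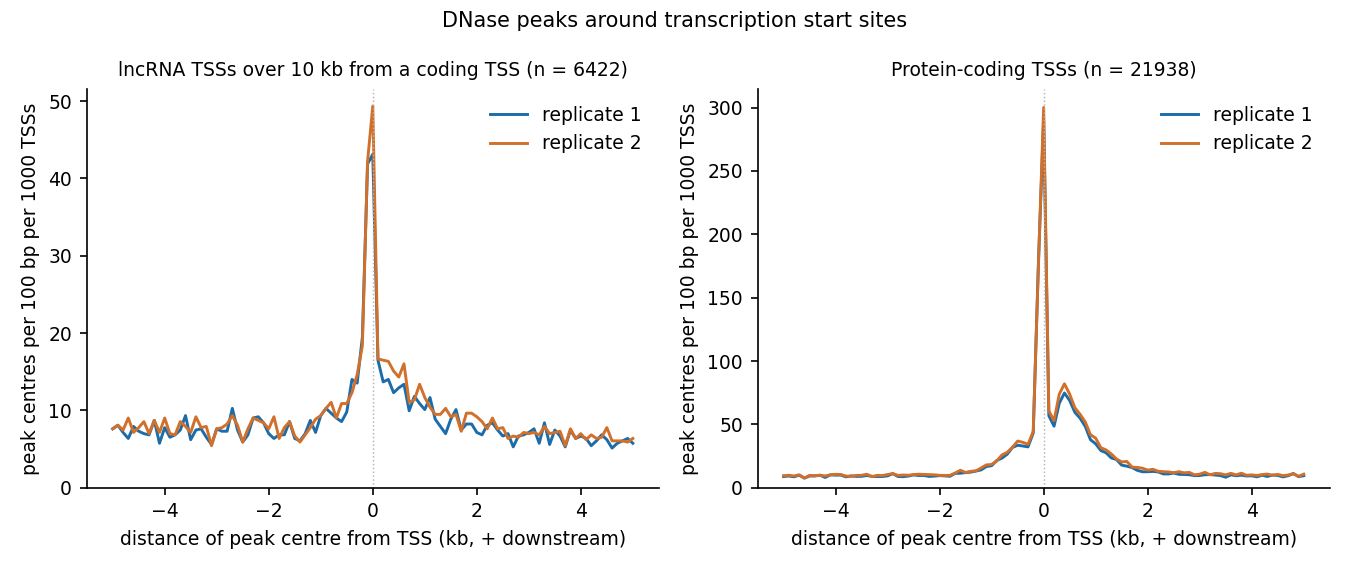
Number of peak centres per 100 bp per 1000 TSSs (vertical axis) against the distance of the centre from the TSS in kb (horizontal axis, positive downstream), for lncRNA TSSs over 10 kb from a coding TSS on the left and protein-coding TSSs on the right, with 1 line per replicate and a scale for each panel. Both panels have their maximum at the TSS, at 43.1 and 49.4 for lncRNA genes and at 290.3 and 300.0 for protein-coding genes.

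The sequences of 16 lncRNA promoter peaks are given to show what lies under the values that follow. They are the tallest peak of each gene in replicate 1, read from the plus strand of GRCm38.p6 as RefSeq gives it, and written 5′ to 3′. Capitals mark footprints of replicate 1, the short stretches inside open chromatin that the authors found protected from cutting. Snhg7os and Gm12246 were chosen after their values were seen. Tall peaks come first, with the CpG-rich peaks of 6720427I07Rik (chr13:48546541-48546800) and Gm27017 (chr14:61648761-61649000) and the CpG-poor peaks of Gm15408 (chr5:149006801-149006980) and Gm45218 (chr6:91599081-91599300).
6720427I07Rik: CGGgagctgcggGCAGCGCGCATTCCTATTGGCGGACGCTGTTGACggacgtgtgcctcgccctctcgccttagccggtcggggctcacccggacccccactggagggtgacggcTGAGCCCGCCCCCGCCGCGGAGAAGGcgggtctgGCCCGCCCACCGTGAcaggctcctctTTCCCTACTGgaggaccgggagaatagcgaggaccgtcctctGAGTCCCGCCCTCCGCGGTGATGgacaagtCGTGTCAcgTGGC
Gm27017: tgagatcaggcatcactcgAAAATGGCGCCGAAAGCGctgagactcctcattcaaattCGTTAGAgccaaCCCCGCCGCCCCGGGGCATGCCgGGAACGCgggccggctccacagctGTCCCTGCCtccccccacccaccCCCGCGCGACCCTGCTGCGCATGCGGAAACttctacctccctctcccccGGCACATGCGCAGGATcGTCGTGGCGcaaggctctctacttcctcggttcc
Gm15408: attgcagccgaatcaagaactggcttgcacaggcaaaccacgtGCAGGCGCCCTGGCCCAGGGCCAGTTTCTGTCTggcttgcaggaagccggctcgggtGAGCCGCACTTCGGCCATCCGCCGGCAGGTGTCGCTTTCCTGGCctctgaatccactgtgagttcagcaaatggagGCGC
Gm45218: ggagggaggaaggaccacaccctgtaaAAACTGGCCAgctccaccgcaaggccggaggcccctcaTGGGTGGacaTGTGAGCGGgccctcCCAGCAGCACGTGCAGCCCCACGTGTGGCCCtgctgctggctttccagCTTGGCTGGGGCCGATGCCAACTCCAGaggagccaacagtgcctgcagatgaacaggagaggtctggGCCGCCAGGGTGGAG
All 3 matches to the GC box GGGCGG in the 6720427I07Rik peak lay wholly in footprints. So did the match to the NRF1 consensus GCGCATGCG in the Gm27017 peak and both matches to the E-box CACGTG in the Gm45218 peak. A CTCF core and an SF-1 consensus, CAAGGTCA, are shown in the peaks of Snhg7os (chr2:26640241-26640380), with heights of 11.8 and 17.7, and Gm12246 (chr11:58126501-58126660), with heights of 8.37 and 9.47.
Snhg7os: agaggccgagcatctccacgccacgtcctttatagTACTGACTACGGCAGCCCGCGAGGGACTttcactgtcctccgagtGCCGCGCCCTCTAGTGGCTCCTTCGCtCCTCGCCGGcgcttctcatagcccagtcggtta
Gm12246: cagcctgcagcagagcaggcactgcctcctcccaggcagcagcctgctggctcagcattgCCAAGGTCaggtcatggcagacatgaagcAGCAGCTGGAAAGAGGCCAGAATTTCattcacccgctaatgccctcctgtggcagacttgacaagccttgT
The CTCF match in the Snhg7os peak lay wholly in a footprint, and 7 of the 8 bases of the SF-1 match in the Gm12246 peak did.

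The next 6 sequences belong to lncRNA genes with a known role. Ftx (chrX:103622361-103622640) and Xist (chrX:103483161-103483320) lie in the X inactivation centre, Kcnq1ot1 (chr7:143296521-143296740) and Meg3 (chr12:109540861-109541080) are imprinted, Mir17hg (chr14:115042181-115042360) hosts a microRNA cluster, and Pvt1 (chr15:62037901-62038080) neighbours the growth regulator Myc.
Ftx: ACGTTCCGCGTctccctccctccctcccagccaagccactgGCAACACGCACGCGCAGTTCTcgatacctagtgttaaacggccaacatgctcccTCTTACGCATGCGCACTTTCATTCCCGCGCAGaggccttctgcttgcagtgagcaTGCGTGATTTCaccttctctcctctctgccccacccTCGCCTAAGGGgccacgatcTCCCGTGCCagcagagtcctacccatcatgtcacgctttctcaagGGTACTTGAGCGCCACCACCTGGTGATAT
Xist: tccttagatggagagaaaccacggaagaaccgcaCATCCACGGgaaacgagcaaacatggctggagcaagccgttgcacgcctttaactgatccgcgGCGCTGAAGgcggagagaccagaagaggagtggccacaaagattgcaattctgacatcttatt
Kcnq1ot1: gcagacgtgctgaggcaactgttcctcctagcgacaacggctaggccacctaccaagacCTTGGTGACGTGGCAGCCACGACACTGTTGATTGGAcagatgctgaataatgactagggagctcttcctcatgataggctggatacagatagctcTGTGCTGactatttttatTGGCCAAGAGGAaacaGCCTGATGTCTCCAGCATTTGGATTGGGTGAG
Meg3: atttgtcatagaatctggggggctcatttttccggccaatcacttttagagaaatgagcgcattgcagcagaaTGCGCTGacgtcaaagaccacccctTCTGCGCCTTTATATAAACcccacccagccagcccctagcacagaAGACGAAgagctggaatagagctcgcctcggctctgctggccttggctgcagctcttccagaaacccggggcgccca
Mir17hg: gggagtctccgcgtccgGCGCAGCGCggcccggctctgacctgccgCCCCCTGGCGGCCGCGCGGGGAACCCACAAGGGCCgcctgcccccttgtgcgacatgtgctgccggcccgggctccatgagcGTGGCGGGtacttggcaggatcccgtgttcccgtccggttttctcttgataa
Pvt1: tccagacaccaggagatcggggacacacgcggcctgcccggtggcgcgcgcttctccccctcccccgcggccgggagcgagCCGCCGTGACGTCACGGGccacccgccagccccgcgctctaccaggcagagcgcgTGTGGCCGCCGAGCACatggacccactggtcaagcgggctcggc
The CRE consensus TGACGTCA lay wholly in a footprint at Pvt1, while at Meg3 2 of its 8 bases did. Both matches to the TATA motif TATAAA in the Meg3 peak lay wholly in a footprint. The Ftx peak held the NRF1 consensus wholly in a footprint.

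The last 4 sequences are neighbours of genes with a role in the adrenal gland or in early stimulus responses. D730003I15Rik (chr1:191224341-191224520) is nearest Atf3, Gm44946 (chr7:70346261-70346500) is nearest Nr2f2, Gm13003 (chr4:137164561-137164740) is nearest Wnt4 and Gm17322 (chr9:57998479-57998604) is nearest Cyp11a1. The distances, to coding TSSs of the basic set, are 6.39, 14.2, 112.8 and 16.1 kb in that order.
D730003I15Rik: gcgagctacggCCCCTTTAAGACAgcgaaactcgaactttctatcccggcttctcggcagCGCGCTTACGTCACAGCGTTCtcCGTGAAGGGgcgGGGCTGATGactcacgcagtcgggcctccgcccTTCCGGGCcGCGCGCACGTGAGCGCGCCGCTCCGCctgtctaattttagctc
Gm44946: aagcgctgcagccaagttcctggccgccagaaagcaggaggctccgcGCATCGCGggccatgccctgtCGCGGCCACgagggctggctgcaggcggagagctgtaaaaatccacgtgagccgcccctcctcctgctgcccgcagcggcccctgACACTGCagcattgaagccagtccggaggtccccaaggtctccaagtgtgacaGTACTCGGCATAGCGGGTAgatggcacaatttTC
Gm13003: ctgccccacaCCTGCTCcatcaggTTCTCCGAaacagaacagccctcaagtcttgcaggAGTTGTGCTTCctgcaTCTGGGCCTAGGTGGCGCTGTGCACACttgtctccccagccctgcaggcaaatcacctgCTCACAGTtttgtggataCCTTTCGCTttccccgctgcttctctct
Gm17322: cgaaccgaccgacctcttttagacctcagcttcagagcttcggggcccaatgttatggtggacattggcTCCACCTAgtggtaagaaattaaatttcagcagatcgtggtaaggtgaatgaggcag
Footprints covered 47.8% of the D730003I15Rik peak and 38.9% of the Gm13003 peak, against 18.8% at Gm44946 and 6.35% at Gm17322.

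About 1 lncRNA gene in 4 had an open start site by this rule. Of 6969 lncRNA genes with a TSS over 5 kb from any coding TSS, 1643 and 1719 had such a peak, or 23.6% and 24.7%. Of 21938 protein-coding genes, 68.3% and 69.3% had a peak within 1 kb of a TSS. Genes typed antisense, which run opposite to another gene, stood at 26.4% and 27.1% (n = 1735). Genes typed lincRNA, which lie between other genes, stood at 22.6% and 23.9% (n = 5234). The difference between lncRNA and coding genes was far larger than the difference between replicates, while that between the 2 lncRNA types was a few percentage points.

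Open start sites were more frequent among CpG-rich ones. A site was called CpG-rich when 500 bp around it had an observed to expected CpG ratio of at least 0.6 and a GC content of at least 50%. Among lncRNA genes with a CpG-rich TSS, 70.6% and 73.9% had a promoter peak (n = 245). Among those with a CpG-poor TSS, 21.9% and 22.9% did (n = 6724). The coding genes were at 97.2% and 97.8% with a CpG-rich TSS (n = 11801) and at 34.6% and 36.1% with a CpG-poor TSS (n = 10137). lncRNA genes were thus below coding genes in both CpG classes, and the classes differ in size, since 245 of 6969 lncRNA genes had a CpG-rich TSS.

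Chromosome X stood below the autosomes. On chromosome X, 18 and 21 of 117 lncRNA genes had a promoter peak, or 15.4% and 17.9%, against 25.8% and 26.9% of 6303 on the autosomes. On chromosome Y, 0 of 549 had one in either library of these female animals. The lncRNA promoter peaks were named for 1625 and 1699 genes by nearest TSS, of which 1454 were found in both libraries and 1870 in at least 1. More than 1 peak was found at 437 and 505 of these genes, with at most 7 and 6 at a gene.

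Within the 1-kb window the lncRNA promoter peaks leaned towards the TSS less than coding promoter peaks did. The share within 100 bp of a TSS was 27.2% and 27.1% of lncRNA promoter peaks, against 40.3% and 39.4% of coding promoter peaks. An even spread around a single TSS would give 10%, and more where several TSSs lie close together. Coding genes had more start sites each, with 41525 TSSs for 21938 genes, against 10099 for 8813 lncRNA genes. The part of this in the difference was not tested. The median distance was 299 and 307 bp, against 190 and 207 bp. lncRNA promoter peaks within 100 bp of the TSS had median heights of 1.26 and 1.37, and those beyond 500 bp had 0.972 and 0.980. Coding promoter peaks ranged far more, with medians of 6.204 and 9.02 within 100 bp and 0.981 and 1.24 beyond 500 bp. The classes were thus farthest apart in height at the TSS itself and closer together beyond 500 bp. Of the lncRNA promoter peaks 55.2% and 53.2% lay upstream of the TSS.

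lncRNA promoter peaks were lower than coding promoter peaks and higher than distal peaks. Their median height was 1.04 and 1.13, with quartiles of 0.570 and 2.17 in replicate 1 and of 0.6002 and 2.69 in replicate 2. Coding promoter peaks, with the centre within 1 kb of a coding TSS, had medians of 2.15 and 2.88 (n = 28785 and 30510). Distal peaks, over 5 kb from a coding TSS and over 1 kb from an lncRNA TSS, had medians of 0.776 and 0.821 (n = 109657 and 114832). The ratio of medians was 0.483 and 0.393 against coding promoter peaks and 1.34 and 1.38 against distal peaks. Of the lncRNA promoter peaks 30.2% and 28.6% were in the highest of 4 equal height classes of all peaks, against 53.0% and 54.1% of coding promoter peaks and 17.4% and 17.2% of distal peaks.

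The gap to coding promoter peaks was much smaller among CpG-poor peaks. CpG-rich peaks made up 12.2% and 12.9% of lncRNA promoter peaks, 61.9% and 60.9% of coding promoter peaks, and 1.72% and 1.81% of distal peaks. CpG-poor lncRNA promoter peaks had median heights of 0.962 and 1.03, against 0.972 and 1.14 for CpG-poor coding promoter peaks and 0.766 and 0.812 for CpG-poor distal peaks. CpG-rich lncRNA promoter peaks had medians of 2.81 and 2.87, against 4.45 and 6.35 for CpG-rich coding promoter peaks and 1.58 and 2.02 for CpG-rich distal peaks.

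**Figure D2:**
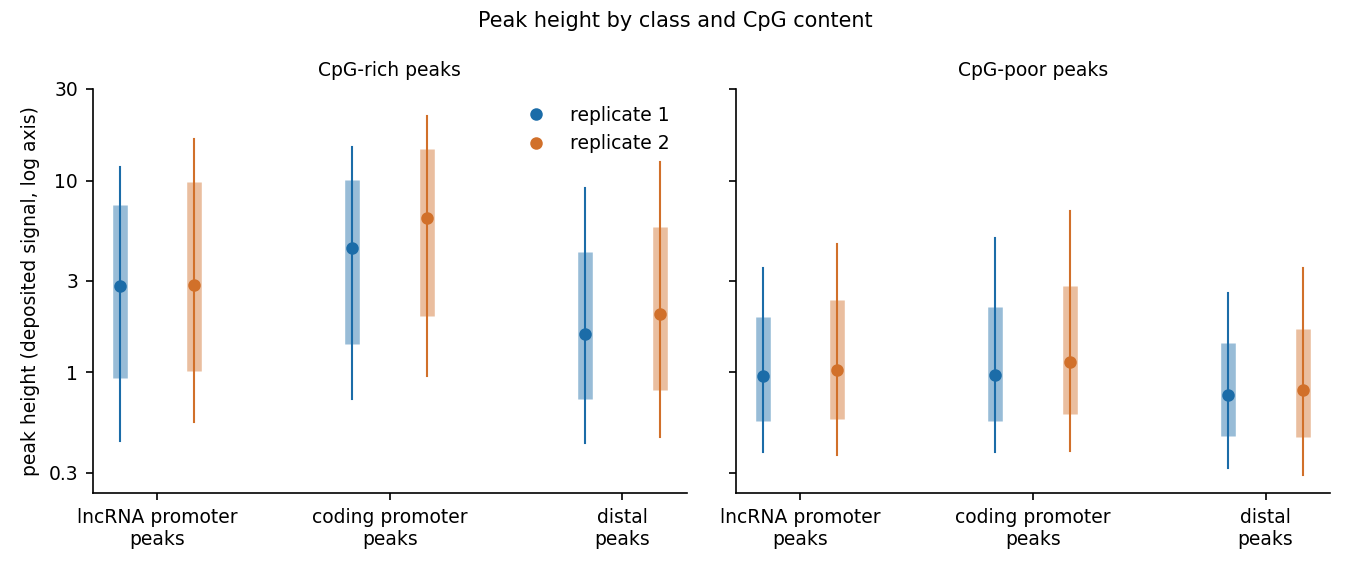
Peak height (vertical log axis, deposited signal) of lncRNA promoter, coding promoter and distal peaks, with CpG-rich peaks on the left and CpG-poor peaks on the right, for each replicate. Points are medians, bars span the quartiles and thin lines the 10th to 90th percentiles over peaks; the CpG-poor medians of lncRNA promoter peaks (0.962 and 1.03) lie beside those of coding promoter peaks (0.972 and 1.14).

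The open stretches were short. The unbroken run of positions under a false discovery rate of 0.05 around lncRNA promoter peaks had a median of 292 and 288.5 bp, against 797 and 889 bp at coding promoter peaks and 245 and 243 bp at distal peaks. Runs of at least 500 bp were found at 22.7% and 25.0% of lncRNA promoter peaks, 65.5% and 69.0% of coding promoter peaks, and 7.53% and 7.72% of distal peaks. At CpG-rich lncRNA promoter peaks the median run was 676.5 and 767 bp, against 994 and 1092 bp at CpG-rich coding promoter peaks.

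Heights were lowest far from protein-coding genes. lncRNA promoter peaks 5 to 10 kb from a coding TSS had median heights of 1.13 and 1.41, and those 10 to 50 kb away had 1.22 and 1.28, so that the order of these bins differed between the libraries. Those 50 to 200 kb away had 0.944 and 1.08, and those 200 kb or more away 0.645 and 0.688. Distal peaks in these 4 bins had medians of 0.9998 and 1.10, 0.869 and 0.953, 0.701 and 0.733, and 0.477 and 0.441, so that the lncRNA promoter peaks were higher in every bin and library. Of the lncRNA promoter peaks 76.2% and 77.2% lay outside any coding gene body, which holds for 95.0% and 95.5% of those typed lincRNA. Of those typed antisense 71.4% and 71.3% lay inside a coding gene on the opposite strand. Peaks inside coding gene bodies made up 23.8% and 22.8% of lncRNA promoter peaks, against 50.02% and 50.31% of distal peaks.

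Footprints were found in 77.9% and 75.7% of lncRNA promoter peaks, against 74.0% and 72.2% of coding promoter peaks and 73.5% and 71.6% of distal peaks. Among lncRNA promoter peaks the share rose with height in each replicate. It was 37.9% and 35.8% in the lowest of 4 equal height classes of all peaks, 74.3% and 72.7% in the second, 89.0% and 84.8% in the third and 98.7% and 98.1% in the highest. Coding promoter peaks had 53.2% and 54.2% in the second class and 56.2% and 48.8% in the third, well below the lncRNA promoter peaks of like height, and 95.3% and 93.7% in the highest. Distal peaks had 93.5% and 92.2% in the third class, above the lncRNA promoter peaks. The density was 9.77 and 9.53 footprints per kb of lncRNA promoter peak, against 11.1 and 10.9 at coding promoter peaks and 8.82 and 8.62 at distal peaks. A footprint in an lncRNA promoter peak had a median length of 10 bp in both libraries.

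For several motifs the lncRNA promoter peaks lay between the other classes. Motifs were searched on both strands in the 200 bp around the peak centre, and a match is a description of the sequence only. The GC box GGGCGG, bound by Sp and Klf proteins, was in 17.0% and 17.0% of lncRNA promoter peaks, 48.3% and 48.0% of coding promoter peaks and 6.49% and 7.26% of distal peaks. The AP-1 site TGANTCA, bound by Fos and Jun dimers, was in 18.2% and 16.1%, against 5.29% and 4.93% of coding promoter peaks and 22.6% and 19.6% of distal peaks. The SF-1 site CAAGGTCA, bound by the adrenal regulator Nr5a1, was in 3.83% and 3.85%, against 1.39% and 1.39% of coding promoter peaks and 5.58% and 5.23% of distal peaks. The CTCF core, bound by the insulator protein CTCF, was in 3.56% and 3.22%, against 0.837% and 0.780% of coding promoter peaks and 4.37% and 4.15% of distal peaks. For all 4 motifs the lncRNA promoter peaks lay nearer to the distal peaks than to the coding promoter peaks.

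Differences in the GC box and the ETS site were smaller within a CpG class. Within CpG-rich peaks the GC box was in 54.4% and 55.0% of lncRNA promoter peaks, against 63.5% and 63.6% of coding promoter peaks. Within CpG-poor peaks it was in 11.8% and 11.4%, against 23.5% and 23.7% of coding promoter peaks. The ETS site CCGGAAG was in 3.61% and 3.52% of lncRNA promoter peaks and in 9.16% and 8.92% of coding promoter peaks, and within CpG-rich peaks in 9.26% and 8.14% against 12.6% and 12.3%. The NF-Y site CCAAT and the YY1 site AAGATGGC were less frequent in lncRNA promoter peaks than in both other classes. The YY1 site was in 0.767% and 0.838%, against 2.25% and 2.24% of coding promoter peaks and 1.26% and 1.38% of distal peaks. The NF-Y site differed little, at 22.4% and 22.2% of lncRNA promoter peaks, 24.3% and 23.2% of coding promoter peaks and 23.6% and 22.7% of distal peaks. lncRNA promoter peaks with the CTCF core had median heights of 2.49 and 3.795, against 0.9998 and 1.10 for those without it.

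Motif matches differed widely in how often they lay in footprints. Footprints covered 12.4% and 12.9% of the bases of lncRNA promoter peaks. Of the matches to the CTCF core in whole lncRNA promoter peaks, 70 of 79 and 70 of 77 had their middle base in a footprint, or 88.6% and 90.9%. Of the matches to the NRF1 consensus GCGCATGCG, 20 of 21 and 19 of 24 did. Of the matches to the CRE consensus TGACGTCA, 16 of 26 and 17 of 25 did. The SF-1 consensus was at 35.4% and 38.4% and the GC box at 30.7% and 36.8%, both above the share of bases covered. The GATA site AGATAA was at 5.43% and 8.07% and the TEAD site GGAATG at 10.4% and 11.7%, both below it. The AP-1 site was at 22.0% and 15.2%. The order resembled that in coding promoter peaks, where 84.6% and 87.7% of CTCF matches, 95.5% and 95.9% of NRF1 matches and 6.58% and 5.79% of GATA matches were in footprints, over 15.5% and 16.4% of the bases.

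**Figure D3:**
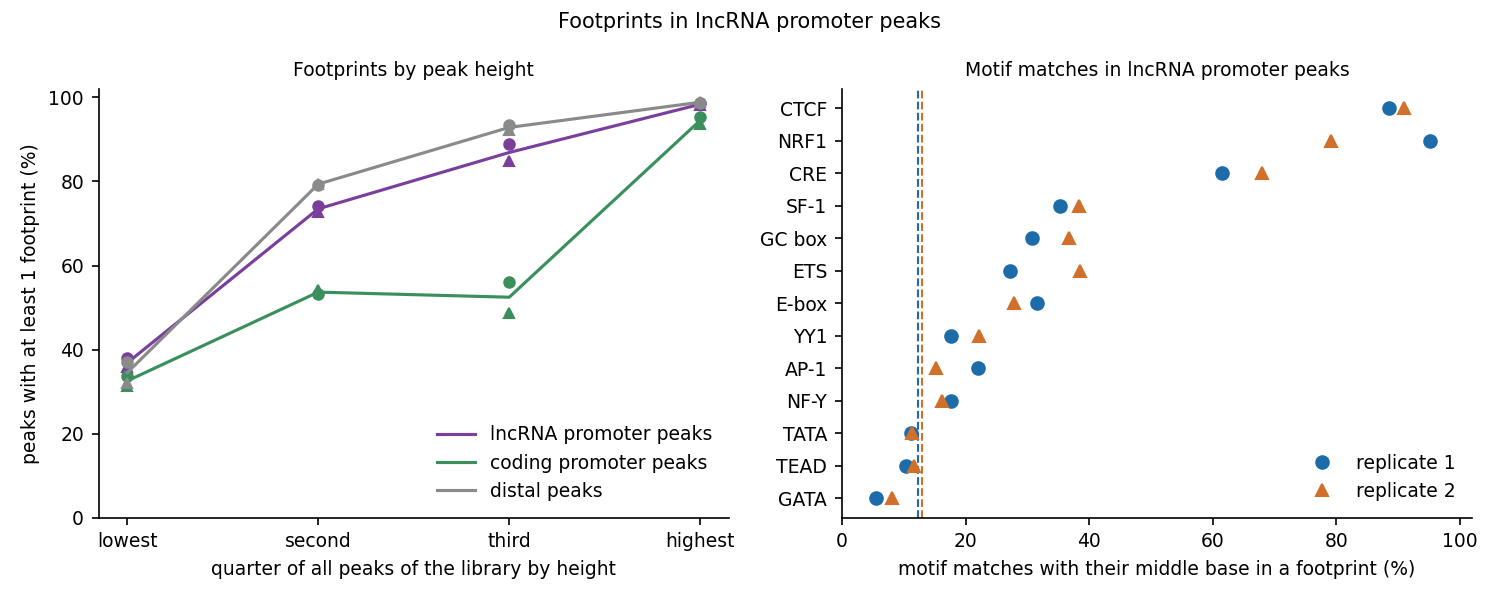
On the left, the share of peaks with at least 1 footprint (vertical axis, percent) by height class (4 equal parts of all peaks in the library), for lncRNA promoter, coding promoter and distal peaks; circles are replicate 1, triangles replicate 2 and lines their means. On the right, the share of motif matches in lncRNA promoter peaks whose middle base lies in a footprint (horizontal axis, percent), with dashed lines at the share of peak bases in footprints; CTCF and NRF1 lie highest and GATA lowest.

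The tallest lncRNA promoter peaks stood above the typical open coding promoter. The 20 genes with the highest mean height and a peak in both libraries had heights between 11.9 and 62.8 in replicate 1 and between 20.7 and 61.1 in replicate 2. The tallest promoter peak of open coding genes, a like measure, had a median of 7.01 and 10.3. Over single coding promoter peaks the upper quartile was 7.08 and 10.1. Of these peaks 17 were CpG-rich and 19 lay outside a coding gene body. In 19 of the 20 the height was larger in replicate 2, by up to 1.84-fold. The exception was Gm42418, the tallest, with 62.8 and 61.1. Its peak lies in a gene typed rRNA of the same annotation (chr17:39846353-39848827). Of its 32-base words 0% occur once in the genome, so reads of 32 bases cannot be placed uniquely there and its height is uncertain.

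Most of the other tall peaks were at unique sequence and belong to genes without a well-known role. Heights were 24.0 and 37.9 at 9430037G07Rik, where 57.9% of the words were unique. They were 24.8 and 33.8 at 1700096K18Rik and 24.9 and 30.8 at 6720427I07Rik, both fully unique. Gm33195 had 20.7 and 29.1, Gm20732 had 20.1 and 28.1, and Gm10010 had 19.8 and 32.9. These 6 are CpG-rich and at least 13.7 kb from a coding TSS. Gm15408, with 20.99 and 34.03, and Gm45218, with 13.4 and 20.7, are CpG-poor, with CpG ratios of 0.467 and 0.325. Of the rest of the 20, 1700113A16Rik (18.5 and 27.3), Gm31812 (18.7 and 26.0), Gm15287 (14.1 and 21.8), Gm11205 (14.1 and 21.3) and D230017M19Rik (11.9 and 21.1) are CpG-rich. Gm27017, with 14.2 and 24.5, lies in the noncoding gene Dleu2, a host of microRNAs. Over all lncRNA promoter peaks, 94.7% and 94.1% had over 90% unique words, and 32 and 35 had under 50%.

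A few of the tall peaks are coding promoters in other annotations. Of the 20, 4 lay within 1 kb of a coding TSS in the full GENCODE set or of a RefSeq mRNA start. The peak of Tmem250-ps, with heights of 20.9 and 38.5, lay 0.026 kb from the start of a RefSeq mRNA of the same name. The peak of Gm29019 (15.8 and 28.7) lay 0.028 kb from a TSS of Tcf20 in the full set, that of Gm17552 (18.0 and 29.7) 0.105 kb from one of Carns1, and that of 4932412D23Rik (16.7 and 23.6) 0.609 kb from a RefSeq start of Zbtb20. Over all 1870 genes, 121 had their tallest peak within 1 kb of such a start and 228 within 5 kb. The number of lncRNA promoter peaks without peaks near RefSeq mRNA starts was 2062 and 2218.

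**Figure D4:**
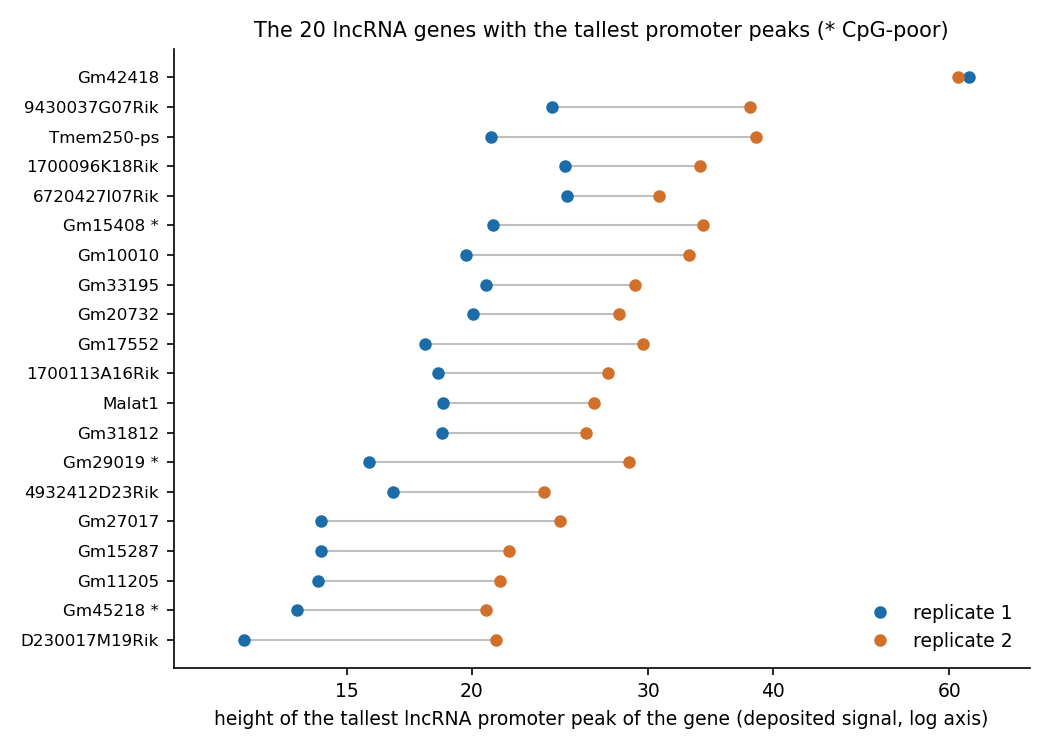
Height of the tallest lncRNA promoter peak (horizontal log axis, deposited signal) in replicates 1 and 2 for the 20 genes with the highest mean, in that order from the top, with CpG-poor peaks starred. Gm42418 stands apart at 62.8 and 61.1, and the other genes lie between 11.9 and 38.5 with replicate 2 higher in each.

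Most of the well-studied lncRNA genes tested had an open start site. Of 106 such names, 81 were annotated and 51 were of the lncRNA types, and 35 of these had a TSS over 5 kb from a coding TSS. Of the 35, 28 had a promoter peak in each library. The 7 without one were Mirg, Miat, Mir124a-1hg, Hotair, Dlx6os1, Pantr1 and Rapgef4os2. Mir142hg, whose TSS is 4.96 kb from a coding TSS, also had a peak that passed the rule, with heights of 0.869 and 0.918. The median tallest height over these 29 genes was 2.39 and 3.97, against 1.20 and 1.32 over all open lncRNA genes. The list holds genes chosen for being known, many of them widely expressed, and so does not stand for lncRNA genes in general.

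Malat1, an abundant RNA of nuclear speckles, was the highest of these, with heights of 18.7 and 26.5 at a peak 998 bp from its nearest annotated TSS. That is the edge of the window, and within 500 bp of the TSS its tallest peak had 10.7 and 15.1. Neat1, the scaffold of paraspeckles, was named for heights of 1.07 and 10.9, because the same site was nearest the TSS of Frmd8os in replicate 1, where it had a height of 8.16. The hosts of small nucleolar RNAs Snhg6, Snhg12 and Snhg20 had 7.66 and 11.8, 7.19 and 9.89, and 5.81 and 8.61. Mir17hg, host of a microRNA cluster that promotes growth, had 7.05 and 8.95. Peaks at all of these but Neat1 were CpG-rich. The CpG-poor call at Neat1 is for its replicate 1 peak of 1.07, 794 bp from the TSS. It does not describe the taller site shared with Frmd8os.

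The X inactivation centre held open start sites at each of its 4 listed genes. Ftx, an activator of Xist, was highest, with heights of 12.7 and 16.7. Jpx, another activator of Xist, had 3.22 and 5.46, and Xist itself had 2.14 and 3.48 at a peak 14 bp from its TSS. Tsix, the antisense repressor of Xist, had 0.691 and 0.980. The order Ftx, Jpx, Xist and Tsix was the same in both libraries, and the values of Jpx and Xist overlapped between the libraries.

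Imprinted lncRNA genes differed widely. Kcnq1ot1, which silences neighbours on the paternal chromosome, had heights of 5.97 and 7.21, and Airn, which silences Igf2r, had 3.08 and 4.06. Meg3, expressed from the maternal chromosome, had 1.91 and 1.85, at a peak with 73.0% unique words. With the start sites of all transcripts of the annotation, its tallest peak had 2.31 and 4.78. H19, also maternal and strongest before birth, had 0.561 and 0.477. Among lncRNAs tied to the cell cycle and p53, Lockd, beside Cdkn1b, had 5.31 and 7.56, Lncpint had 4.66 and 7.49, and Trp53cor1, beside Cdkn1a, had 4.38 and 6.05. The height at Lncpint depended on the start sites used, with 12.8 and 21.3 in a 2-kb window or with all transcripts, and 3.01 and 3.68 with more noncoding gene types. Mir155hg, a host of an immune microRNA, had 1.73 and 2.28, and Mir9-3hg, a host of a neural microRNA, had 2.07 and 3.23. The others with a peak were Epb41l4aos (6.09 and 7.84), Platr4 (2.39 and 3.18), Halr1 (2.12 and 1.78), Ptgs2os2 (1.33 and 1.02) and Dnm3os (0.701 and 0.777). Among genes known from other organs, the smooth muscle gene Carmn had 0.925 and 1.11, the cardiac gene Bvht had 1.08 and 1.10 and the neural gene Rmst had 0.430 and 0.459. In a 2-kb window Carmn had 5.44 and 7.19 and Bvht had 5.29 and 9.52, and Carmn had the same values when overlap with the 1-kb window was enough.

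**Figure D5:**
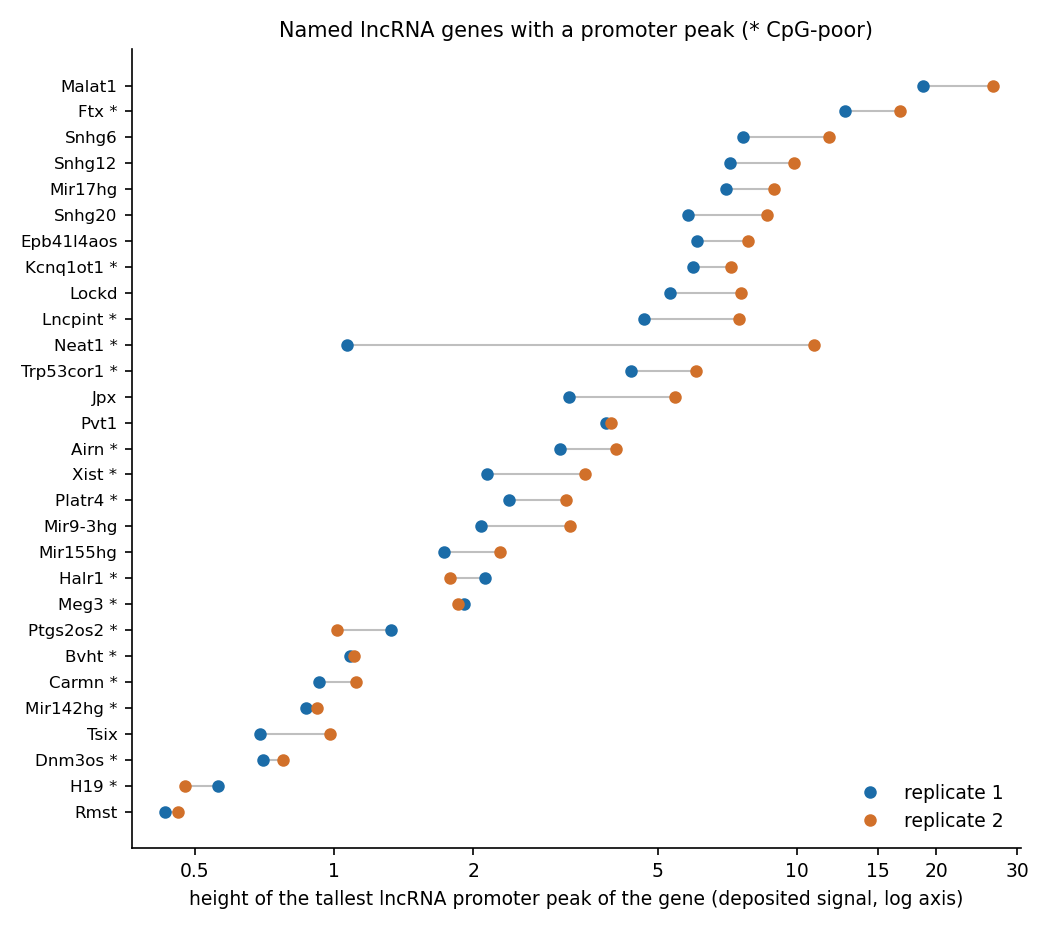
Height of the tallest lncRNA promoter peak (horizontal log axis, deposited signal) in replicates 1 and 2 for the 29 listed lncRNA genes with one, by mean height from the top, with CpG-poor peaks starred. Heights run from 0.430 and 0.459 at Rmst to 18.7 and 26.5 at Malat1, and Neat1 is wide because its site was named for Frmd8os in replicate 1. The star at Neat1 is for its low replicate 1 peak.

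lncRNA genes whose nearest coding gene has a role in adrenal function or early stimulus responses were described by 7 lists of coding genes. An lncRNA gene is called beside a coding gene when that is its nearest coding gene in the basic set, at any distance. Together the listed genes were nearest to 122 lncRNA genes. Of these, 37 and 43 had a promoter peak, or 30.3% and 35.2%, against 23.6% and 24.7% of all 6969. Over the 6303 on the autosomes the share was 25.8% and 26.9%. Of the 37 and 43, 15 in each library were beside immediate early genes, a list with 32 of the 122. The pooled share thus rests in good part on that list. Beside genes of steroid synthesis, 4 of 12 were open in each library. Gm17322, 16.1 kb from the basic-set TSS of Cyp11a1, the enzyme that cuts the side chain of cholesterol, had heights of 1.77 and 1.65. Its peak lay 0.517 kb from a RefSeq mRNA start of Cyp11a1, so lncRNA and coding start sites cannot be told apart there. In replicate 2 the peak that overlaps the printed one had a height of 1.05. The others are nearest Fdx1, the electron donor of that enzyme, in the basic set. The distances are 48.576 kb for 4933407I05Rik, 31.996 kb for Gm6980 and 87.886 kb for Arhgap20os. In the full GENCODE set Arhgap20os is nearest Arhgap20, at 43.888 kb, while 4933407I05Rik and Gm6980 stay nearest Fdx1. Heights were 2.89 and 3.42 at 4933407I05Rik, 2.20 and 2.87 at Gm6980 and 1.23 and 0.812 at Arhgap20os. These heights were above the median tallest peak of open lncRNA genes, 1.20 and 1.32, in both libraries except for Arhgap20os in replicate 2.

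Beside transcription factor genes listed for the adrenal gland, 11 and 13 of 35 lncRNA genes were open, where the share of all 6969 was 23.6% and 24.7%. The highest were Gm44946, 14.2 kb from the orphan receptor gene Nr2f2, with 8.23 and 13.4, and Gm53, 9.77 kb from the homeobox gene Hoxb9, with 8.41 and 12.4. Gm37170, 70.2 kb from Foxo1, had 5.24 and 7.89, and Gm32067, 283.6 kb from Nr2f1, had 4.08 and 5.56. Beside genes of the zona glomerulosa and Wnt signalling 6 and 7 of 19 were open, led by Gm13003 with 4.15 and 6.63. Gm13003 lies 112.8 kb from Wnt4, a signal of that outer zone. Gm15883, 10.8 kb from the X-zone gene Cyp2f2, had 1.20 and 1.04 and was the only open gene of 4. These lists of 35, 19 and 4 genes are too short to read a difference from the share of all 6969.

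Of 15 lncRNA genes beside chromaffin cell genes, 0 and 3 were open. The 3 peaks of replicate 2 were low. Heights were 0.777 for 1700042O10Rik (22.3 kb from Ddc), 0.680 for Gm34030 (13.4 kb from Hand2) and 0.556 for A930019D19Rik (37.4 kb from Insm1). In the full GENCODE set, 1700042O10Rik lies 3.18 kb from Ddc and A930019D19Rik 2.09 kb from Ralgapa2, both within 5 kb of a coding TSS. Of 5 lncRNA genes beside clock genes, 0 were open in either library. Beside the 23.6% and 24.7% of all 6969 genes, lists of 15 and 5 genes are too short to read a difference from. The part of the number of chromaffin cells in this was not tested.

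Beside immediate early genes, which respond within minutes to stimuli, 15 of 32 lncRNA genes were open in each library. The share was 23.6% and 24.7% over all 6969 lncRNA genes, and 25.8% and 26.9% over the 6303 on the autosomes. Whether this list of 32 differs from them was not tested. Gm9530, 16.1 kb from Ier5, had heights of 11.4 and 16.4, and D730003I15Rik, 6.39 kb from the stress factor gene Atf3, had 9.83 and 13.8. The 6.39 kb is to a TSS of the basic set, and the nearest RefSeq mRNA start, also of Atf3, lay 41.1 kb away. Pvt1, 50.6 kb from Myc, had 3.86 and 3.97. Heights were 3.21 and 4.45 at 4833427F10Rik, 49.8 kb from Ier3, and 3.17 and 3.18 at Gm26802, 8.28 kb from Fosb. The Gm9530 peak also held the most footprints of any tallest peak of a gene open in both libraries, with 12 and 11. It was followed by Gm47061 beside Tfap2a with 8 and 7, Gm20732 and 2810405F17Rik with 7 in each library, and Gm17552 with 8 and 6. All 5 were CpG-rich.

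Open lncRNA genes had open coding neighbours more often than closed ones did. The nearest coding gene had a promoter peak for 85.3% and 86.8% of the 1472 lncRNA genes open in both libraries, against 71.5% and 72.5% of the 5079 open in neither. The closed set, here and in the next paragraph, includes the 549 lncRNA genes of chromosome Y, which female animals lack. Their nearest coding genes lie on that chromosome too. The part of these genes in the differences between open and closed genes was not tested. Where the coding neighbour had a CpG-rich promoter, the shares were 98.2% and 99.1% (n = 1056) against 96.6% and 97.6% (n = 2975). Where it had a CpG-poor promoter, they were 52.6% and 55.5% (n = 416) against 36.0% and 37.0% (n = 2104). Nearly all CpG-rich neighbours were open in both sets, which leaves little room for a difference there. The difference was present in each distance bin, with 83.0% and 83.8% against 73.6% and 74.2% at 5 to 20 kb, 85.1% and 87.5% against 74.4% and 75.3% at 20 to 100 kb, and 88.1% and 88.4% against 67.9% and 69.2% beyond 100 kb.

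Open lncRNA genes also differed from closed ones in their start sites and surroundings. A CpG-rich TSS was present in 11.5% of those open in both libraries, against 1.20% of those open in neither. The median distance to a coding TSS was 44.1 kb, against 73.9 kb. The nearest coding gene was a transcription factor gene, by name pattern, in 8.76% of the open and 6.52% of the closed genes. The share was 7.03% over all 6969 lncRNA genes, and 5.71% and 5.74% over distal peaks. Of the coding genes themselves 2.47% matched the pattern, which is a share of another set. Genes with 3 or more exons made up 58.0% of the open and 57.3% of the closed genes.

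The farthest open genes from any coding TSS were low. C130073E24Rik lay 2241 kb from Tenm3, with heights of 0.420 and 0.547. Gm35552, 1525 kb from Hace1, had 0.430 and 0.574, Gm13470, 1326 kb from Zeb2, had 1.07 and 0.927, Gm29318, 1086 kb from Nr2f1, had 0.514 and 0.485, and Gm32647, 963 kb from Fam181b, had 0.420 and 0.203. None of these heights reached the median tallest peak of open lncRNA genes, 1.20 and 1.32.

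The replicates shared most lncRNA promoter peaks. Of those of replicate 1, 85.2% overlapped a peak of replicate 2 by at least 1 bp, and 79.9% of those of replicate 2 overlapped a peak of replicate 1. The shares were 90.04% and 85.3% for coding promoter peaks and 77.3% and 73.9% for distal peaks. Over the 1888 shared lncRNA promoter peaks of replicate 1, the median log2 ratio of replicate 2 to replicate 1 was 0.38, the same as over all 126336 shared peaks, beside 0.56 for coding promoter peaks and 0.28 for distal peaks. The log2 heights had a Pearson correlation of 0.949 across these peaks, which come from the same pair of libraries.

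Few shared lncRNA promoter peaks differed between the libraries. Of the 1888, 95 lay over 2-fold from the median ratio, or 5.03%, where 5.59% of all shared peaks did, so the share was near the background. Relative to that ratio, 12 of the 95 were higher in replicate 2 and 83 in replicate 1. All shared peaks leaned the same way, with 625 higher in replicate 2 and 6435 in replicate 1. The widest differences were at Gm32624, with 1.69 in replicate 1 and 0.432 in replicate 2, 1700061I17Rik with 1.78 and 0.538, 1700095J12Rik with 1.63 and 0.574, Gm42031 with 1.58 and 0.565, and 4930543I03Rik with 0.654 and 0.238. All 5 were CpG-poor and higher in replicate 1, with folds from 2.74 to 3.91.

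Peaks found in 1 library were mostly low. The 329 lncRNA promoter peaks of replicate 1 with no overlapping peak in replicate 2 had a median height of 0.439, against 1.25 for the shared ones. The 480 of replicate 2 with none in replicate 1 had 0.485, against 1.52. The tallest was a peak of 8.87 at Gm15287 in replicate 2, which lay 41 bp from the nearest peak of replicate 1. In replicate 1 the tallest was 2.77 at A230028O05Rik, 141 bp from a peak of replicate 2. Of the peaks found in 1 library, 18.8% and 19.4% had a peak of the other library within 200 bp.

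The members nearest the thresholds of the rule covered a wide range of heights. Just inside 1 kb lay 2410080I02Rik, Gm31786 and Gm30411 in replicate 1, with heights of 6.48, 0.392 and 1.35, and Gm47760, 4930593A02Rik and Malat1 in replicate 2, with 0.327, 0.618 and 26.5. Just outside lay peaks of 3.96, 1.03 and 0.364 in replicate 1 and of 1.17, 4.68 and 2.47 in replicate 2. Just beyond 5 kb from a coding TSS lay Mir142hg, Ctcflos and Gm26840 in replicate 1, with 0.869, 0.505 and 2.06, and Mir142hg, Gm26840 and Gm47232 in replicate 2, with 0.918, 1.93 and 0.874. Just within 5 kb, and so not counted, lay peaks of 0.290, 0.776 and 0.131 in replicate 1 and of 1.96, 8.43 and 1.17 in replicate 2. The median height was 1.08 and 1.11 in the last 100 bp inside the 1-kb limit (n = 145 and 157), against 0.855 and 1.13 in the first 100 bp outside it (n = 148 and 137), so the order of these medians differed between the libraries.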

How the data were processed

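Peaks, footprints and false discovery rates were taken as deposited for each library, made from its own alignments on mm10 per the text deposited with each sample, with no pooling. Aligner, peak caller and settings: not given in the sources used here. Peak heights are a signal that the authors scaled before deposit in a way not stated, so depth is unknown and no counting interval can be given. The deposited false discovery rates, a kind of adjusted p-value, are listed under 0.05, and the p-value column of the deposited footprint lists was the constant 0.01, so footprints were not ranked. The longer of the 2 deposited peak lists of each library was used.

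Distances were taken from the peak centre to the TSSs of all transcripts of the GENCODE M21 basic set. A peak was named for its nearest noncoding TSS, a gene's height is its tallest such peak in each library, and a footprint belongs to the peak that holds its centre. CpG content, motifs and 32-base words were read from RefSeq GRCm38.p6. Computations used Python 3.11.15 with numpy 2.4.6 and matplotlib, and were tested on simulated peaks against direct counts.

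Named genes were the 20 tallest by mean height, every listed known lncRNA, the 5 with most footprints, the 5 peaks that differed most between libraries, the 5 farthest from a coding TSS, those nearest the thresholds, and neighbours of the 7 lists. Members and lists were chosen with earlier results of these data known. The replicate numbers name animals of 1 group and pair nothing. Alternatives were other windows, coding distances, peak lists, height minimums, gene types and annotations, and each library alone.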

Additional observations from a re-analysis of the deposited data

How the results depend on the processing

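No paired analysis was possible because there is 1 group of 2 libraries and no test. Values below are means of the 2 libraries. Against 2302.5 lncRNA promoter peaks, a window of 500 bp gave 1526.5, a window of 2 kb gave 3489.5 and peaks above the median height gave 1268, and the other alternatives stayed within 1.5 times. Against 24.1% of eligible lncRNA genes open, the shorter peak list gave 18.2%, the 500-bp window 18.2%, the 2-kb window 32.4%, peaks above the median height 14.4% and more noncoding gene types 22.2%. Against a height ratio to coding promoter peaks of 0.438, the 500-bp window gave 0.277, the 2-kb window 0.533 and all transcripts of the annotation 0.523, so that the ratio stayed under 1 throughout. Against 76.8% with a footprint, the shorter list gave 86.7% and peaks above the median height 93.0%.

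The share within 100 bp of a TSS was 27.1%, beside 29.8% with the shorter list, 40.9% with the 500-bp and 17.9% with the 2-kb window, 27.4% and 26.7% with coding distances of 10 and 2 kb, 25.8% with overlap in place of the centre, 30.95% for peaks above the median height, 25.7% with more gene types, 27.7% with all transcripts and 27.4% without peaks near RefSeq mRNA starts. The CpG-rich share was 12.5%, beside 15.3% with the shorter list, 14.8% and 9.66% with the 500-bp and 2-kb windows, 13.6% with a coding distance of 2 kb, 17.2% for peaks above the median height, 13.2% with more gene types, 11.6% with all transcripts and 11.5% without peaks near RefSeq mRNA starts. The share with a partner was 82.5%, and 88.0% for peaks above the median height. The narrower windows and the height minimum act by construction; for the other shifts the cause was not tested. The alternatives with all transcripts and with RefSeq starts were chosen after seeing the data.

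With 1 library left out, counts ran between 2217 and 2388 peaks, the open share between 23.6% and 24.7%, the height ratio between 0.393 and 0.483, the footprint share between 75.7% and 77.9%, the share within 100 bp between 27.1% and 27.2%, the CpG-rich share between 12.2% and 12.9% and the partner share between 79.9% and 85.2%. Of the 20 tallest genes, 17 kept a member peak in both libraries with all transcripts and 17 without peaks near RefSeq mRNA starts, and 18 with a coding distance of 10 kb. Footprints and peak calls depend on depth, which is unknown here, and low peaks were the least shared between the libraries.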
